A study of Rattus norvegicus with 6 samples.

Results

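Glutathione S-transferases (GSTs) are the enzymes that join glutathione to reactive compounds, and 10 rat GST genes were followed here from normal to fibrotic liver. They were taken by name from the array as Gsta2, Gsta3 and Gsta4 of the alpha class, Gstm1 to Gstm5 of the mu class, Gstp1 of the pi class and Gstt1 of the theta class, out of 15443 named genes. The 10 genes were read by 12 probes, because Gsta3 and Gstm4 had a brighter and a dimmer probe each. The choice of genes used no measured value, but it was made with earlier results of these data known.

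The study compared liver tissue from 3 normal rats with liver tissue from 3 rats in which fibrosis had been induced by bile duct ligation (BDL), an operation that closes the duct draining bile from the liver. Total RNA from tissue blocks was measured on 6 arrays of 1 colour, 1 array per animal. Strain, sex, age and the time after ligation are not given in the sources used here, nor is it said whether the normal rats had a sham operation. Within each group the arrays are numbered only to name them.

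Soluble GSTs work as pairs of subunits, and the classes differ in sequence and in the compounds they accept. Alpha and mu enzymes are abundant proteins of hepatocytes, the main cells of the liver, and alpha enzymes also bind bilirubin and heme. Gstp1, the placental form, is scarce in normal rat hepatocytes, is found in bile duct epithelium, and is a classic marker of early preneoplastic foci in rat liver. Many GST genes can be induced through NRF2, a transcription factor that acts at antioxidant response elements.

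Gstm3, Gstm5 and Gstp1 rose in fibrotic liver, Gsta2 fell, and the other 6 genes did not pass the test although the differences of all 6 were negative. Each of the 10 differences kept its sign under every alternative that tested the gene. The largest difference was that of Gstm3, at 17.2-fold.

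The promoters of the 4 genes that passed the test are shown because members of the same family moved in opposite directions, and the choice of these 4 was made after the values were seen. The sequences are the 250 bases before the gene's start, from RefSeq on the GRCr8 assembly, written 5′ to 3′ on the gene's strand. Capitals mark matches, on either strand, to TGANTCA, the motif of AP-1 factors, or to TGACNNNGC, the core of the antioxidant response element. Gstp1 lies on the minus strand (chr1:210769706-210769955), Gstm5 on the plus strand (chr2:198219519-198219768), Gstm3 on the minus strand (chr2:198300668-198300917) and Gsta2 on the minus strand (chr8:88077093-88077342).
Gstp1: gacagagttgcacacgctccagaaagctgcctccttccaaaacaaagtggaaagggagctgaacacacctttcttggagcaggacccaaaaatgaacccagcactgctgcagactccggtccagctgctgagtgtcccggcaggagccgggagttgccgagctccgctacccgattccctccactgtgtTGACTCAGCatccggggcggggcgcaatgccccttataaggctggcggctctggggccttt
Gstm5: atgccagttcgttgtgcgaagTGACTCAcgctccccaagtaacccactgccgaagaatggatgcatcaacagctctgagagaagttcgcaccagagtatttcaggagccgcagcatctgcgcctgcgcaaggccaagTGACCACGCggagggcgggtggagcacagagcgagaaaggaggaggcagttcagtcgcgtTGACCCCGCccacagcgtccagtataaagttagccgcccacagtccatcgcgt
Gstm3: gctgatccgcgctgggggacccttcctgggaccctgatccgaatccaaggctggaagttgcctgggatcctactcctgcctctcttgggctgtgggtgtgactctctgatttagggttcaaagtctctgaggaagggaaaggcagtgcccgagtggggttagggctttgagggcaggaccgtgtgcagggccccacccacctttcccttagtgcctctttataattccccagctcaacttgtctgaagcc
Gsta2: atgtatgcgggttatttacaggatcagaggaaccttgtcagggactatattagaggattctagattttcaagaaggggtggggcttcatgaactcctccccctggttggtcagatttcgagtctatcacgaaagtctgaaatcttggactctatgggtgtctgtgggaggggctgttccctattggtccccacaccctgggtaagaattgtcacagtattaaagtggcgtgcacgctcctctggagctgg

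In Gstp1 the 2 motifs overlapped at the same place, with the first base at position -61 from the gene's start. Gstm5 held an AP-1 match at -229 and core matches at -113 and -53. The windows of Gstm3 and Gsta2 held neither motif, which says only that these letters are not in these 250 bases. Among 33469 promoters of this length, 6.34% held TGANTCA and 10.1% held TGACNNNGC, against 2 and 3 of the 9 members with an entry. The third member with the core was Gsta3, at -17 of 1 of its 2 starts. Among GST genes outside the members, the core lay at -14 in Gstm7 and at -231 in Gstz1, both called lower in fibrosis. It also lay at -76 in Gstcd, which had no probe. The core was thus found in genes that rose and in genes that fell. The motif of HNF1, a hepatocyte factor, was also searched and was found in 0 of the 9 members and in 1 of the 33469 promoters. The motifs were chosen after the expression values were known, and a match describes a sequence and is no evidence of binding.

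All 12 probes were well above background on all 6 arrays, and each was among the 19731 probes tested. Values below are log2 signals after subtraction of the array's 75th percentile, so a value of 0 is the level at that percentile. A difference is the fibrosis mean minus the normal mean with its standard error (SE), and a gene was called when its limma p, adjusted by Benjamini-Hochberg over all tested probes, was under 0.05. A gene with a pair of probes was counted by the brighter. By this rule 3 of the 10 genes were called higher and 1 lower. Among all 10864 tested genes, 14.7% were called higher and 7.62% lower, and among all tested probes the shares were 12.4% and 6.79%. The shares over all tested genes also stand beside every count of called genes given below for a list. No test was made over the 10 genes as a set.

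The groups did not overlap for 9 of the 10 genes, 3 with fibrosis higher and 6 with fibrosis lower. Of all tested genes, 22.1% lay wholly higher in fibrosis and 20.9% wholly lower. The median difference of the 10 genes was -0.66, and that of all tested genes was -0.07. The size of the negative differences depended on the scaling. With quantile normalization or cyclic loess each was smaller in size, as for Gsta2 at -0.53 and -0.49 against -0.95. With the array median each was larger in size, as for Gsta2 at -1.30, and the median of all tested probes was then -0.45. These livers are mixtures, so fewer cells of a type and less RNA per cell cannot be told apart.

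**Figure D1:**
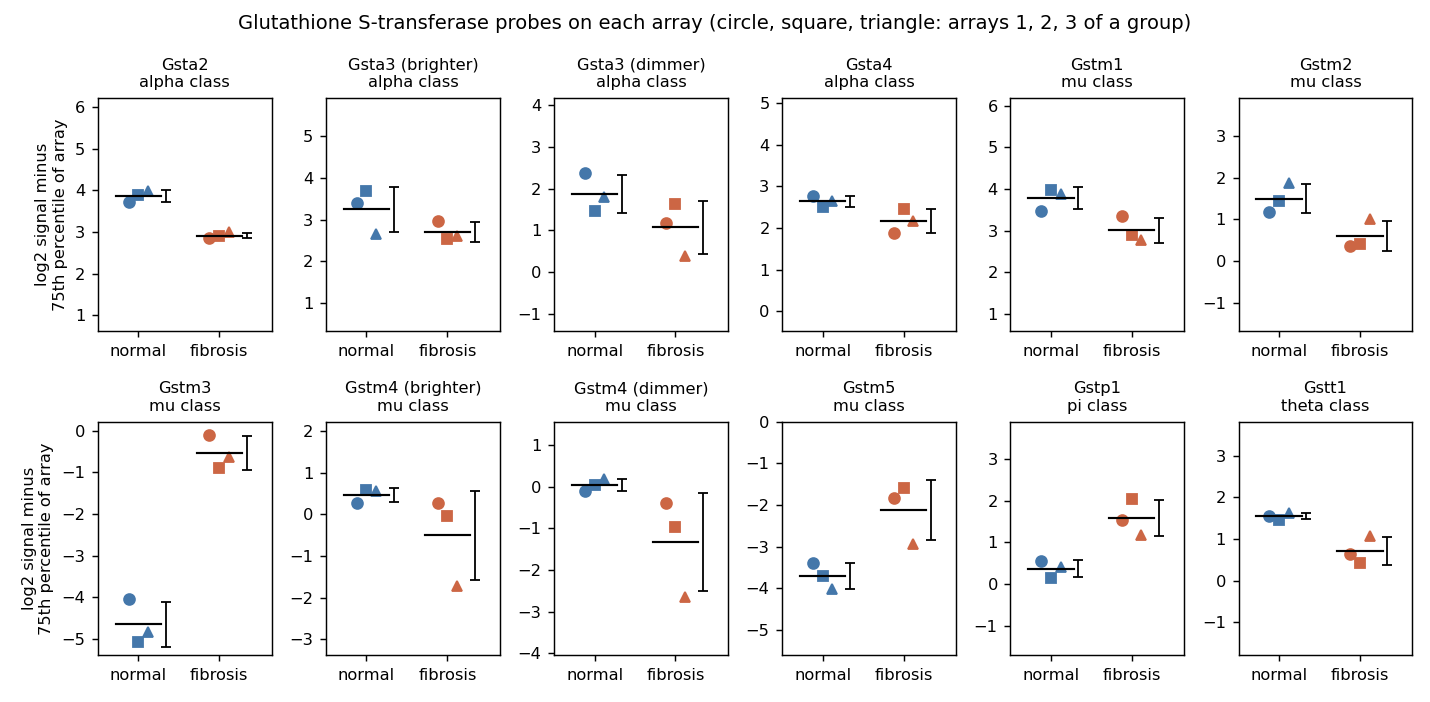
Signal of each GST probe on each array, as log2 signal minus the array's 75th percentile, with blue points for normal and orange points for fibrotic liver. The horizontal line is the mean and the bar is the SD of 3 arrays, and every panel spans the same number of log2 units. Gstm3, Gstm5 and Gstp1 lie higher in all 3 fibrotic livers, and both Gsta3 panels show groups that overlap.

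Gsta2 was the alpha gene that passed the test. Its log2 levels were 3.72, 3.90 and 3.98 in the normal livers and 2.86, 2.90 and 2.99 in the fibrotic livers. The arrays of each group lay close together, with an SD of 0.133 in normal and 0.0670 in fibrotic liver, and the groups were well apart. The difference was -0.95 ± 0.22 (SE, n = 3 per group), or 1.93-fold lower in fibrosis (limma adjusted p = 0.0200). Leaving out normal array 1, 2 or 3 ended the call (adjusted p = 0.0521, 0.0898 and 0.109), as did leaving out fibrosis array 1 (0.0568). It was also lost under several scalings, as under quantile normalization (-0.53, adjusted p = 0.157) and cyclic loess (-0.49, adjusted p = 0.185).

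Gsta4, which conjugates aldehydes from lipid peroxidation such as hydroxynonenal, had log2 levels of 2.78, 2.51 and 2.65 in normal liver and 1.88, 2.46 and 2.17 in fibrotic liver. All 3 fibrotic values lay under all 3 normal values, but the gap between the groups was only 0.0524. The difference of -0.48 ± 0.25 did not pass the test (limma adjusted p = 0.228, n = 3 per group).

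Gsta3 was read by a brighter and a dimmer probe, and its groups overlapped on both. On the brighter probe the log2 levels were 3.41, 3.70 and 2.66 in normal and 2.97, 2.55 and 2.60 in fibrotic liver, where normal array 3 lay among the fibrotic values. On the dimmer probe the levels were 2.37, 1.47 and 1.81 against 1.19, 1.64 and 0.39. The differences of -0.55 ± 0.32 and -0.81 ± 0.38 did not pass the test (limma adjusted p = 0.281 and 0.185, n = 3 per group). On the brighter probe the difference was -0.33 without normal array 2, -0.85 without normal array 3 and -0.10 with normexp, and scalings between arrays gave values from -0.90 to -0.14. Of the 3 alpha genes 0 were called higher and 1 lower, and the median difference of the class was -0.55.

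The mu class held the widest spread, from -0.97 for Gstm4 to 4.10 for Gstm3. Gstm3 had log2 levels of -4.03, -5.06 and -4.83 in normal liver and -0.10, -0.90 and -0.62 in fibrotic liver. Before scaling, its signals were 131.2 to 238.6 in normal and 2601 to 5962 in fibrotic liver, where 0 of its 6 normal spots and all 6 fibrotic spots were marked as non-uniform or as outliers. Its lowest fibrotic value was 3.14 log2 units above its highest normal value. The difference was 4.10 ± 0.35 (SE, n = 3 per group), a rise of 17.2-fold with a limma adjusted p of 0.000174. It was called under every alternative that tested it, with differences from 3.41 to 4.56, and 99.1% of all tested probes had a lower or equal difference.

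Gstm5, in rodents best known as a GST of testis and brain, had log2 levels of -3.39, -3.70 and -4.01 in normal liver and -1.82, -1.59 and -2.93 in fibrotic liver. Fibrosis array 3 lay nearer to the normal livers than the other fibrotic arrays did, and the groups did not overlap. The difference was 1.59 ± 0.38 (SE, n = 3 per group), a rise of 3.00-fold with a limma adjusted p of 0.0221. Leaving out normal array 2 or 3 ended the call (adjusted p = 0.0741 and 0.0948), as did leaving out fibrosis array 1 or 2 (0.0719 and 0.0523). With normexp background correction the adjusted p was 0.0514.

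Gstm1 and Gstm2, common mu subunits of rat liver, had negative differences that did not pass the test. The log2 levels of Gstm1 were 3.48, 3.99 and 3.89 in normal liver and 3.35, 2.90 and 2.79 in fibrotic liver. Those of Gstm2 were 1.17, 1.44 and 1.86 against 0.36, 0.40 and 1.00. Both genes had groups that did not overlap, with gaps of 0.122 and 0.173. The differences were -0.77 ± 0.27 for Gstm1 and -0.90 ± 0.29 for Gstm2 (limma adjusted p = 0.0846 and 0.0675, n = 3 per group). Without fibrosis array 3, Gstm2 passed the test, at -1.11 (limma adjusted p = 0.0257). Over 19 alternatives each, Gstm2 passed under 5, with differences from -1.26 to -0.64, and Gstm1 under 2, from -1.13 to -0.32.

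Gstm4 varied mainly within the fibrotic group. On its brighter probe the log2 levels were 0.28, 0.57 and 0.56 in normal liver and 0.26, -0.04 and -1.72 in fibrotic liver. Fibrosis array 1 lay just below the normal range, by 0.0130, and fibrosis array 3 lay far below it. The dimmer probe gave -0.11, 0.05 and 0.17 against -0.39, -0.96 and -2.65, in the same order of fibrotic arrays. The differences of -0.97 ± 0.49 and -1.37 ± 0.52 did not pass the test (limma adjusted p = 0.213 and 0.112, n = 3 per group). Without fibrosis array 3 the difference on the brighter probe was -0.36. The dimmer probe passed the test without fibrosis array 1 and with the array median as the scale. Of the 5 mu genes 2 were called higher and 0 lower, with a class median of -0.77. At an unadjusted limma p under 0.05, 2 mu genes were higher and 2 lower, and 0 alpha genes were higher and 1 lower. Of all 19731 tested probes, 6342 were under that p in both directions together, so an unadjusted p under 0.05 was common on these arrays.

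Gstp1 rose in fibrotic liver. Its log2 levels were 0.56, 0.15 and 0.40 in the normal livers and 1.53, 2.04 and 1.18 in the fibrotic livers, and the groups did not overlap. The difference was 1.22 ± 0.29 (SE, n = 3 per group), or 2.32-fold, with a limma adjusted p of 0.0211. It lost its call when normal array 1, 2 or 3 was left out (adjusted p = 0.05001, 0.0934 and 0.0809) and when fibrosis array 1 was (0.0529). The call also ended with each array's median as the scale (0.86, adjusted p = 0.0550) and with spike-in probes as the scale (1.29, adjusted p = 0.0650).

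Gstt1, a theta enzyme that acts on small halogenated compounds, had log2 levels of 1.56, 1.47 and 1.62 in normal liver and 0.64, 0.42 and 1.08 in fibrotic liver. The normal arrays lay within 0.151 of each other, and all 3 fibrotic values were lower. The difference of -0.84 ± 0.26 did not pass the test (limma adjusted p = 0.0546, n = 3 per group). It passed without fibrosis array 3, at -1.02 (limma adjusted p = 0.0157). Over 19 alternatives Gstt1 passed under 7, with differences from -1.19 to -0.57.

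**Figure D2:**
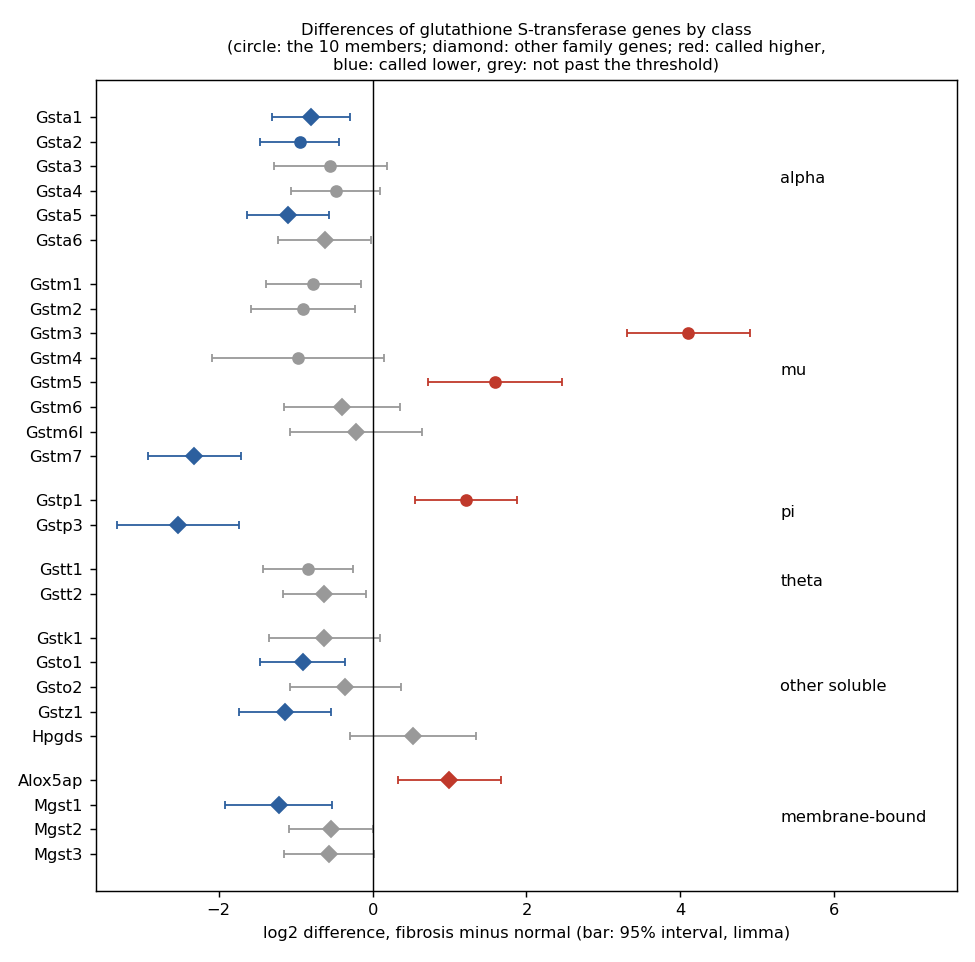
Difference between fibrotic and normal liver on the log2 scale for each tested GST gene, by class, with its 95% interval from limma (3 arrays per group). Circles are the 10 genes followed here and diamonds are other family genes; red was called higher, blue lower and grey neither. Gstm3 stands at 4.10, while Gstm7 and Gstp3 stand at -2.31 and -2.52.

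The position of the arrays on the slide was not balanced between the groups. The normal arrays and fibrosis array 1 lay in row 1 of the slide and fibrosis arrays 2 and 3 in row 2. With the row as a block, the comparison is that of fibrosis array 1 with the normal arrays. Gstm3 was then at 4.54 (limma adjusted p = 0.00464). The calls of the other 3 genes were lost, at 1.88 for Gstm5 (adjusted p = 0.115), 1.16 for Gstp1 (0.198) and -1.0 for Gsta2 (0.147). Within row 2 there is no normal array, so no difference could be taken there.

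Other soluble GST genes were taken as a list of 17, of which 14 were on the array and 13 were tested. By limma 0 were called higher and 6 were called lower, namely Gstp3, Gstm7, Gstz1, Gsta5, Gsto1 and Gsta1. At an unadjusted limma p under 0.05 the counts were 0 and 8, against 6342 of all 19731 tested probes in both directions together. The median difference of the 13 genes was -0.63, and 12 of the 13 differences were negative. Gstt4 was not well above background in either group. Over all 23 tested soluble GST genes, 3 were called higher, 7 lower and 13 neither.

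Gstp3, the other pi gene tested, which lies on chromosome 1 as Gstp1 does, had log2 levels of 4.51, 3.97 and 4.42 in normal liver and 1.63, 1.26 and 2.45 in fibrotic liver. The groups lay far apart, and the gene fell by 2.52 ± 0.35 on the log2 scale, or 5.76-fold (limma adjusted p = 0.00185, n = 3 per group). Gstm7, a mu gene, had log2 levels of 1.47, 1.07 and 1.04 in normal liver and -1.40, -1.17 and -0.80 in fibrotic liver. It fell by 2.31 ± 0.26, or 4.97-fold (limma adjusted p = 0.000747, n = 3 per group). Both calls held under every alternative that tested the gene.

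Smaller decreases were found in genes of other classes. Gstz1, an isomerase of tyrosine breakdown, was at -1.14 ± 0.26, and Gsto1, which can reduce dehydroascorbate, was at -0.91 ± 0.24. The alpha genes Gsta5 and Gsta1 were at -1.10 ± 0.23 and -0.80 ± 0.22. The limma adjusted p of these 4 genes ran from 0.0129 to 0.0379 (n = 3 per group), and each call was lost under 7 to 11 of 19 alternatives. Leaving out normal array 2 or 3 ended all 4 of these calls. Gsto1 and Gsta1 also lost it without normal array 1 or fibrosis array 2, and Gstz1 and Gsta1 without fibrosis array 1.

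The other 7 tested genes did not pass. Gstt2, Gstk1 and Gsta6 were at -0.63, -0.63 and -0.62, Gstm6 at -0.40, Gsto2 at -0.35, Gstm6l at -0.21 and Hpgds, the prostaglandin D synthase of the sigma class, at 0.53 (limma adjusted p from 0.104 to 0.744, n = 3 per group). The sign of Gstm6l turned positive without fibrosis array 3 (0.20) and with centred spike-in probes as the scale (0.050). Gstk1 passed the test without fibrosis array 3 and with array weights. Over 19 alternatives each, Gstt2 passed under 3 and Gsta6 under 2.

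**Figure D3:**
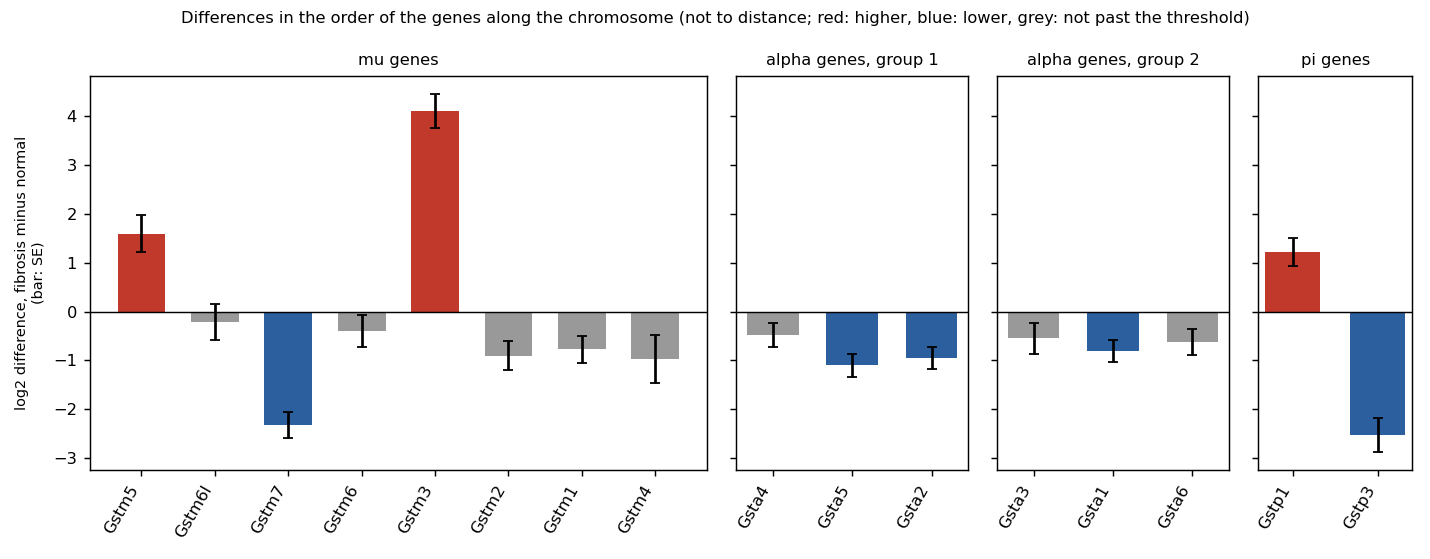
Difference between fibrotic and normal liver on the log2 scale, with its SE, for tested GST genes in their order along the chromosome (not to distance). Red bars were called higher, blue lower and grey neither. In the mu group Gstm3 at 4.10 lies next to Gstm2 at -0.90, and in the pi group Gstp1 at 1.22 lies next to Gstp3 at -2.52.

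Genes that rose and genes that did not lay beside each other in the order of tested genes. The 8 tested mu genes are ordered on chromosome 2 as Gstm5, Gstm6l, Gstm7, Gstm6, Gstm3, Gstm2, Gstm1 and Gstm4. The called increases were at the first and the fifth of these places, with the called decrease of Gstm7 between them. The alpha genes fall into a group on chromosome 8 (Gsta4, Gsta5, Gsta2) and a group on chromosome 9 (Gsta3, Gsta1, Gsta6), and all 6 differences were negative.

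A ratio of a pair of probes on the same array does not depend on a constant shift of that array, such as its 75th percentile, median or spike-in level, but can move under quantile normalization or cyclic loess. For 5 pairs chosen after the values were seen, the log2 ratio was set against its normal mean on each array. The ratio of Gstp1 to Gstp3 was 3.74 higher in fibrosis, with fibrotic values from 2.67 to 4.72 and normal values from -0.09 to 0.11. The ratio of Gstm3 to Gstm7 was 6.42 higher and that of Gstm3 to Gstm2 5.01 higher. That of Gstm5 to Gstm1 was 2.36 higher, and that of Gstp1 to Gsta2 2.17 higher. In all 5 pairs the groups did not overlap, and the two-sided exact permutation p was 0.1, the smallest that 3 arrays against 3 can give, so 0.05 could not be reached. Adjusted over the 5 pairs, the permutation p was also 0.1. In each pair the first gene lay wholly higher in fibrosis and the second wholly lower. The ratio therefore had to separate the groups and give that p, so neither counts as support.

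The profiles most like those of Gstm3 and Gsta2, the called members with the largest increase and decrease, were found by the root mean square distance over the 6 arrays, with each gene set against its normal mean. Among 10863 other genes, the nearest to Gstm3 were Fbn2, a fibrillin of elastic fibres (distance 0.241), Apod, a lipid-binding secreted protein (0.312), and Col11a1, a fibrillar collagen chain (0.384). Fbn2 was at 4.33. Apod and Col11a1 were not well above background in any normal liver, so their normal values have no exact level and their distances are uncertain. With normal values raised to at least the lowest signal well above background on each array, they were 9.84-fold and 7.64-fold higher in fibrosis. These folds are no firm minimum, since with normexp the differences were only 1.68 and 1.49 on the log2 scale. The nearest to Gsta2 were Nr1h4, the bile acid receptor FXR (0.0728), Abcd3, a transporter of the peroxisome membrane (0.0745), and Rwdd2b (0.0785), at -1.0, -1.01 and -0.89. These distances describe 6 arrays of 2 groups, in which any genes with similar differences lie close.

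The membrane-bound relatives of the GSTs gave 1 increase and 1 decrease among 4 tested of 6 listed genes. Mgst1, an abundant enzyme of liver microsomes, fell by 1.22 ± 0.30 on the log2 scale (limma adjusted p = 0.0259). Alox5ap, which helps make leukotrienes in white blood cells, rose by 1.00 ± 0.29 (0.0464). Mgst2 and Mgst3 were at -0.54 and -0.57 and did not pass (0.159 and 0.166, n = 3 per group). Mgst1 lost its call when normal array 2 or 3 or fibrosis array 2 was left out, and Alox5ap when any array but fibrosis array 3 was. With alternatives of every kind counted, Mgst1 lost its call under 10 of 19, including quantile normalization, cyclic loess, both spike-in scalings, normexp, no filter on dim probes and the slide row as a block, with values up to -0.74. Alox5ap lost it under 13 of 20, including the same 7 and the array median.

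Glutathione itself is made in 2 steps, of which the first is rate-limiting and is catalysed by the product of Gclc with the helper subunit from Gclm. Both genes fell. Gclc had log2 levels of 1.52, 1.62 and 1.97 in normal liver and -0.03, -0.51 and -0.38 in fibrotic liver, a difference of -2.01 ± 0.25 (limma adjusted p = 0.00124, n = 3 per group). Gclm was at -1.89 ± 0.39 (0.0122). Its call ended when normal array 3 was left out, with centred spike-in probes as the scale and with the slide row as a block. Of the 8 tested genes for glutathione synthesis and reduction, 3 were called lower and 1 higher, with a median of -1.07.

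Genes that process conjugates after the GST step moved in both directions. Ggt1, whose product starts the breakdown of glutathione and its conjugates, rose from log2 levels of -2.76, -3.11 and -3.82 to levels of -0.06, 0.48 and 0.81. The difference was 3.64 ± 0.35, or 12.5-fold (limma adjusted p = 0.000338, n = 3 per group). Nat8, which acetylates cysteine conjugates to mercapturic acids in the last step of that pathway, fell from 1.22, 1.83 and 2.28 to -2.25, -2.98 and -2.45. Its difference was -4.34 ± 0.34, or 20.2-fold lower (limma adjusted p = 0.000135, n = 3 per group). Ggt7, a relative of Ggt1 that was well above background on 1 of 3 normal arrays, rose by 1.96 ± 0.28 (0.00212). Its call was lost with the slide row as a block (1.61, adjusted p = 0.0539) and with normexp (0.79, adjusted p = 0.0686). Chac2, which cleaves cytosolic glutathione, was at -1.33 ± 0.38 on its brighter probe (limma adjusted p = 0.0430) and at -1.72 ± 0.35 on a dimmer probe (0.0118). Leaving out normal array 2 or 3 or fibrosis array 2 or 3 ended the call of the brighter Chac2 probe, which was lost under 9 of 19 alternatives. The dimmer probe was not put through the alternatives. Of the 12 tested genes of this list 3 were called higher and 2 lower, against 14.7% and 7.62% of all tested genes.

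Among the exporters of conjugates, Abcc2, the pump of the bile canaliculus, fell by 1.75 ± 0.29 on the log2 scale (limma adjusted p = 0.00420). Abcc3, the pump on the blood side of the hepatocyte, rose by 2.35 ± 0.49 (0.0132; 1.55 with normexp), and Abcc1, a related pump found in many cell types, rose by 1.91 ± 0.29 (0.00308, n = 3 per group). With the slide row as a block the calls of Abcc1 and Abcc2 were lost (adjusted p = 0.0732 and 0.0935). Of the 7 tested exporters 3 were called higher and 1 lower, against 14.7% and 7.62% of all tested genes.

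Of 14 tested regulators of GST genes, 1 was called higher and 1 lower, against 14.7% and 7.62% of all tested genes. Cebpa, a transcription factor of mature hepatocytes, fell by 1.89 ± 0.27 on the log2 scale (limma adjusted p = 0.00222, n = 3 per group). Fosl1, a subunit of AP-1, was not well above background in any normal liver and was measured in all 3 fibrotic livers. With its normal values raised to the lowest signal well above background on each normal array, Fosl1 was 6.20-fold higher in fibrosis. The limma adjusted p, from values not raised, was 0.000227. With normexp its difference was only 1.35 on the log2 scale, so 6.20-fold is no firm minimum.

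**Figure D4:**
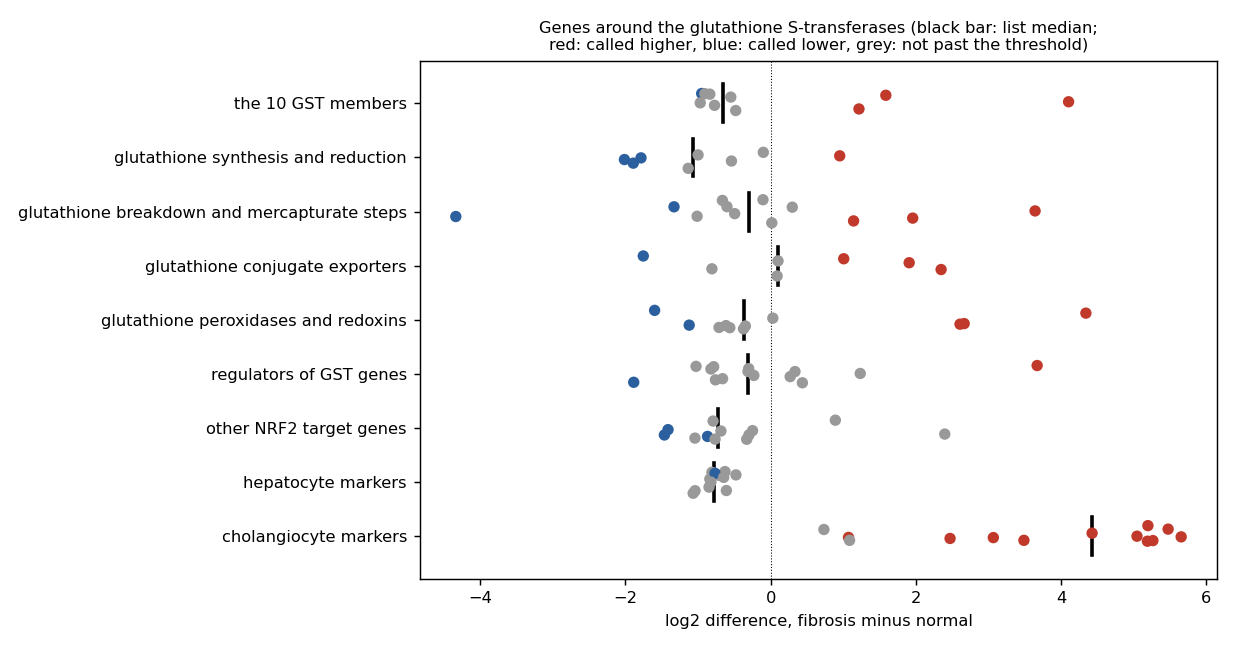
Difference between fibrotic and normal liver on the log2 scale for the tested genes of each list, 1 point per gene, with the list median as a black bar. Red points were called higher, blue lower and grey neither, and the vertical scatter within a list has no meaning. The GST genes have a median of -0.66, hepatocyte markers -0.79 and cholangiocyte markers 4.43.

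Markers of some cell types moved between the groups as well. Of 12 hepatocyte markers, all tested, 0 were called higher and 1 lower by limma, with a median difference of -0.79. The counts at an unadjusted limma p under 0.05 were 0 and 8, against 6342 of all 19731 tested probes in both directions together. Their summed level, in multiples of the 75th percentile, was 200.7 to 216.1 in normal and 114.4 to 155.9 in fibrotic liver. Of 13 tested markers of cholangiocytes, the cells lining the bile ducts, 11 were called higher, with a median of 4.43. Their summed level was 2.04 to 2.70 in normal and 13.2 to 21.1 in fibrotic liver. Of 11 tested markers of stellate cells and myofibroblasts 7 were called higher, with summed levels of 8.21 to 12.8 and 19.2 to 38.6. Among markers of pericentral and of periportal hepatocytes, 5 of 10 tested were called lower in each list. Of 10 tested macrophage markers 0 were called, with a median of 0.45 and summed levels of 36.9 to 40.5 and 46.6 to 48.7. Of 5 tested endothelial markers 0 were called, with a median of -0.27. Of 3 tested red blood cell markers 1 was called lower, with a median of -0.88. The part of these shifts in the differences of the GST genes was not tested.

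**Figure D5:**
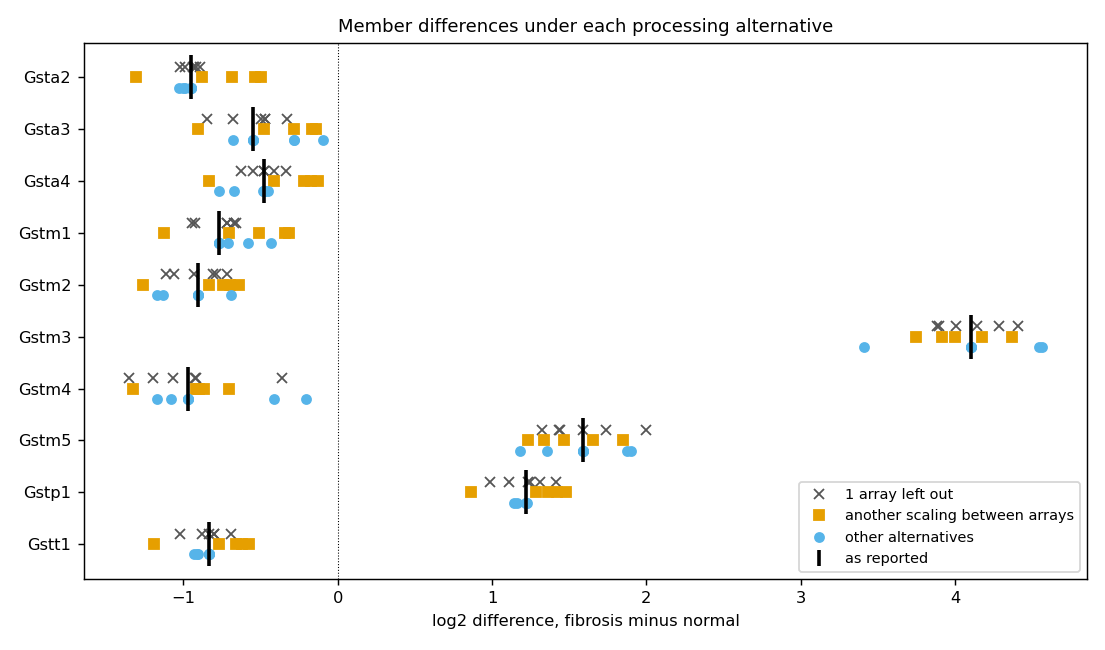
Difference of each GST gene between fibrotic and normal liver on the log2 scale under each alternative that tested it. Black bars are the values reported above, crosses leave out 1 array, squares use another scaling between arrays and circles are other alternatives. Gstm3 stays between 3.41 and 4.56, and no gene crosses 0.

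Depth on these arrays is signal over background. The array's 75th percentile of signal was 4016 ± 330 in normal and 5453 ± 833 in fibrotic liver (SD, n = 3), and no spot was saturated. The SD between arrays was larger in the fibrotic group for 9 of the 12 GST probes, with medians of 0.381 in fibrotic and 0.239 in normal liver. The same held over all tested probes, where the median SD was 0.424 in fibrotic and 0.228 in normal liver. Of the 132 GST spots on the 6 arrays, 95 were marked by the scanner software as non-uniform or as outliers, and they were kept. With marked spots left out, Gsta4 and Gstm5 were the only members that could be tested.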

How the data were processed

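Purified cDNA carried Cy3 dye only, per the labels' protocols. The deposited spot intensities are linear and were written by Agilent Feature Extraction 11.5.1.1, with background subtracted and spatial trends removed, per the file headers. These steps can shift dim probes more than bright probes. There was 1 slide and 1 scan for all 6 arrays.

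Processed signals were converted to log2, each array's 75th percentile over 58717 spots other than controls was subtracted, and spots of 1 probe were averaged to 30367 probes. Accessions were matched to the RefSeq gene table of GRCr8, which named 18355 probes. Symbols there can differ from older names of the same genes. Tested probes were well above background, with at least 0.5 of their spots so called, on all arrays of at least 1 group. Groups were compared with limma 3.58.1 (lmFit, eBayes) in R 4.3.3, over 19731 probes. The number of arrays limits the precision. In data simulated for this comparison over 19731 probes, only 100 probes were changed per size. There the fit recovered 1% of changes of 1 log2 unit and 39% of changes of 2 log2 units. The measured data had far more called probes, 2439 higher and 1339 lower. Recovery with that many changed probes was not tested.

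The members, lists and tests were chosen with earlier results of these data known. Named genes are all members, all genes of both GST lists, up to 2 called genes per direction from each other list, and the 3 nearest profiles of a called member in each direction. Alternatives covered scaling, background, filters, probe choice, the model, the slide row and leaving out arrays. Probe sequences were not used here, so cross-hybridisation between near-identical GST genes is uncertain. Results of 2 listed genes outside the 10 members are not reported here.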

Additional observations from a re-analysis of the deposited data

How the results depend on the processing

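No paired analysis was possible because no label ties a normal rat to a fibrotic rat. Counts of GST genes called higher stayed within 1.5 times of 3 except for 1 with the slide row as a block, 1 at an adjusted p under 0.01, and 1 with marked spots left out, where 2 members were tested; leaving out 1 array gave 1 to 3. The count called lower, 1 as reported, was 0 with quantile normalization, cyclic loess, either spike-in scaling, no filter on dim probes, the row block, marked spots left out, an adjusted p under 0.01 and a 2-fold minimum. It was 2 with normexp and with the highest probe per gene, 3 with the mean of probes, 4 with trend and robust eBayes and with array weights, and 5 with the array median; leaving out 1 array gave 0 to 3.

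The array median moved the median of all probes from -0.10 to -0.45 and the calls from 2439 higher and 1339 lower to 1890 and 3884. Spike-in scaling by the median of E1A control probes gave 1971 and 475. A version that centred each E1A probe on its own mean gave 2609 and 373; it was added after the results of the former were seen, and under it Gstp1 kept its call (1.48, adjusted p = 0.0130), which the former ended. Other counts over all probes that differed by over 1.5 times were 1020 and 178 with the row block, 3637 and 3580 with array weights, 1422 and 385 at an adjusted p under 0.01, 1915 and 610 with marked spots left out and 799 lower with no filter; leaving out 1 array gave 1551 to 2619 higher and 461 to 1721 lower.

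The alpha median was -0.17 with quantile normalization, -0.14 with cyclic loess, -0.90 with the array median, -0.48 and -0.29 with the spike-in scalings, -0.48 with normexp, -0.45 with marked spots left out, -0.68 with the mean of probes, -0.67 with array weights and -0.77 with the row block, and -0.85 to -0.47 without 1 array. The mu median was -0.34, -0.32 and -1.13 with the first 3 of these, -0.51 with centred spike-in scaling, -0.41 with array weights and -0.21 with the row block, and the range without 1 array was -0.93 to -0.36. With marked spots left out it was 1.36, from Gstm5 alone, since the other 4 mu genes then had too few unmarked spots to be tested. The pi median was 0.86 and the theta median -1.19 with the array median, and the theta median was -0.57 with centred spike-in scaling. Gstm6l reversed to 0.050 with centred spike-in scaling and ranged from -0.53 to 0.20 without 1 array, the positive value being that without fibrosis replicate 3.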

Other observations

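Genes of the list of glutathione peroxidases and redoxins, which includes thioredoxin and a thioredoxin reductase, moved in both directions. Of the 11 tested genes 3 were called higher and 2 lower, against 14.7% and 7.62% of all tested genes. Gpx2, a peroxidase of epithelia, had log2 levels of -1.54, -3.97 and -2.58 in normal liver and 1.43, 1.80 and 1.71 in fibrotic liver, a rise of 4.34 ± 0.54 (limma adjusted p = 0.00115, n = 3 per group). Gpx7, a peroxidase of the endoplasmic reticulum, rose by 2.67 ± 0.23 (0.000196). Gpx1, the common cytosolic peroxidase, fell by 1.12 ± 0.26 (0.0205), a call that ended when any 1 normal array or fibrosis array 1 was left out and under 9 of 19 alternatives in all. Txnrd1, a thioredoxin reductase, fell by 1.60 ± 0.39 (0.0251). Its call ended when normal array 1 or 3 was left out, with either spike-in scaling and with the slide row as a block.

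Of 12 tested NRF2 target genes outside the GST family, 0 were called higher and 3 lower by limma, with a median difference of -0.72. The counts at an unadjusted limma p under 0.05 were 2 and 5, against 6342 of all 19731 tested probes in both directions together. Akr7a3, an aflatoxin aldehyde reductase, fell by 1.41 ± 0.25 on the log2 scale (limma adjusted p = 0.00593), and Ugt1a6, a glucuronosyltransferase of phenols, fell by 1.46 ± 0.29 (0.00983, n = 3 per group). Leaving out normal array 3, either spike-in scaling and the slide row as a block (-0.99, adjusted p = 0.179) each ended the call of Ugt1a6. A dimmer probe of Ugt1a6 was at -0.30 ± 0.47 with groups that overlap and did not pass (limma adjusted p = 0.707).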
